A study of Mus musculus with 24 samples.

Results

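The G1 and S phase replication genes are a list of 40 mouse genes whose products license replication origins, open and copy DNA, supply nucleotides, drive cells from G1 into S phase, or restore chromatin behind the fork. They were taken by gene symbol, and each gene was read from its brightest probe set (a group of short probes for 1 transcript) on the MA array design, or on MB where MA had none. A probe set naming the gene alone existed for 39 of the 40, of 18193 genes with such a probe set in all, 37 of them on MA and 2 (E2f2 and Gins2) on MB. Chaf1a, the large subunit of the histone chaperone CAF-1, was not analysed here. A further 2 genes, Cdc6 and Tyms, lay below the filter on dim probe sets, so 37 were tested, among 12137 genes tested.

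The RNA came from C2C12 cells, a mouse myoblast line that can leave the cell cycle and fuse into myotubes. The labels divide the cultures by medium, GM or DM, and by glucose, 5 or 25 mM. In work with this line GM and DM usually mean growth and differentiation medium, but the labels give only the letters, with no serum content and no time in culture. Each of the 4 groups (GM at 25 mM, GM at 5 mM, DM at 25 mM and DM at 5 mM) had 3 cultures, every one hybridised to both array designs, and the labels name the same line and no genetic change for all groups. The series asks whether calorie restriction affects myoblast differentiation, with glucose as the only nutrient in the labels. Nothing states that the replicates were grown separately, so the p-values reflect the spread among these 12 cultures, which may be technical.

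As background, origins are licensed in G1, when the origin recognition complex, Cdc6 and Cdt1 load the ring-shaped MCM helicase onto DNA. At the start of S phase, Cdc45 and the GINS complex turn the loaded rings into moving helicases, and polymerases, the sliding clamp and its loader then copy both strands. Many of these genes are targets of E2F transcription factors, which the retinoblastoma family holds in check until cyclin E and its kinase act. Myoblasts withdraw from the cell cycle as they form muscle, and genes of replication and mitosis are known to fall as they do.

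The promoters of the group are shown first, because words known to bind E2F factors recur in them. Each window ran from 250 bases before to 50 bases after the start of a RefSeq transcript (GRCm38.p6), and 35 of the 40 members had one. The search was for TTTCCCGC, TTTCGCGC, TTTGCCGC and TTTGGCGC on both strands, so that the reverse words GCGGGAAA, GCGCGAAA, GCGGCAAA and GCGCCAAA also counted. A forward and a reverse word can overlap, as they do in Mcm5 and Mcm6. At least 1 word lay in 14 of the 35 members, against 704 of all 27025 genes with a window (2.61%). The share was 7 of 9 among the helicase loading genes, 4 of 10 among the enzymes of DNA synthesis and 0 of 5 among the genes of nucleotide supply. The stretches below belong to members whose levels are described further on and are read 5′ to 3′ on the strand of the gene, with the words in capitals.
Mcm5, chr8:75109331-75109392, plus strand: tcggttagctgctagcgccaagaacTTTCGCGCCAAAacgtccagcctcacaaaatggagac
Mcm6, chr1:128359779-128359840, minus strand: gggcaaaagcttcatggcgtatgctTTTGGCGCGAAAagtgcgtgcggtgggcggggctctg
Cdt1, chr8:122568037-122568064, plus strand: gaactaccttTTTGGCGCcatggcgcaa
Pola1, chrX:93632261-93632318, minus strand: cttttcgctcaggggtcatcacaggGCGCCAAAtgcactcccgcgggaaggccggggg
Rfc3, chr5:151651209-151651243, minus strand: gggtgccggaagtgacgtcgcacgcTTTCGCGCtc
Lig1, chr7:13278842-13278869, plus strand: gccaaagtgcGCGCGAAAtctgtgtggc
Uhrf1, chr17:56304103-56304160, plus strand: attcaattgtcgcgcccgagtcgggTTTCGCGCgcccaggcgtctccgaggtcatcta
E2f2, chr4:136172303-136172323, plus strand: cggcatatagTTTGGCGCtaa

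The first 2 stretches hold a pair of overlapping words each, and those of Cdt1, Lig1 and E2f2 lie just past the start of the transcript. Genes of G2 and mitosis, compared with the group further on, had another word. The cell cycle genes homology region (CHR), searched as TTTGAA and its reverse TTCAAA, lay in 19 of the 25 with a window (76.0%), in 5 of the 35 replication genes (14.3%) and in 20.2% of all genes with a window. An E2F word was in 1 of those 25. The stretches of Ube2c and Ccnb2, a ubiquitin-conjugating enzyme and a cyclin of mitosis, show the CHR in capitals. A match in these windows is a description of letters and says nothing of binding.
Ube2c, chr2:164769875-164769928, plus strand: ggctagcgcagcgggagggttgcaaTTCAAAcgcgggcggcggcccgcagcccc
Ccnb2, chr9:70421691-70421746, minus strand: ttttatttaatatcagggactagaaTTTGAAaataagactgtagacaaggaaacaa

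Some features of the cultures bear on all that follows. The mean of the 3 probe sets for 18S ribosomal RNA on MA was 11.5 to 19.8 in 4 cultures (1 and 2 of GM at 5 mM, 3 of DM at 25 mM and 2 of DM at 5 mM) and 159 to 908 in the 8 others. The former are named low-18S and the latter high-18S. The log2 ratio of 3′ to 5′ probes for Actb, a sign of RNA integrity, ranged in GM from 0.34 to 0.55 with 25 mM and from -0.05 to 0.38 with 5 mM, and in DM from 0.12 to 0.18 and from 0.10 to 0.37. Of 8 markers of myoblasts and muscle (Myod1, Myf5, Myog, Des, Cdh15, Myh3, Ckm and Acta1), 6 were higher in DM at each glucose level by the test used below. Of all genes tested, 12.5% were higher at 25 mM and 9.85% at 5 mM. The summed level of the 8 was 2837 to 3119 in GM and 21165 to 36164 in DM at 25 mM, and 2778 to 3317 and 17988 to 29985 at 5 mM. The 5 fat cell markers on MA summed to 405 to 503 in GM and 91.2 to 139 in DM at 25 mM, and to 379 to 471 and 120 to 188 at 5 mM, with Adipoq, the defining one, at group means of 1.56 to 10.2. Cebpa was the brightest of the 5, with means of 265 in GM and 55.9 in DM at 25 mM, and 294 and 56.3 at 5 mM. The 5 blood and endothelial markers summed to 185 to 273 in GM and 81.3 to 121 in DM at 25 mM, and to 140 to 177 and 79.8 to 127 at 5 mM. Cd14 was the brightest of these, with means of 132, 34.0, 117 and 46.6 in the same order. The 3 osteoblast markers on MA summed to 177 to 297, 82.5 to 178, 93.1 to 192 and 96.2 to 237, again in that order. The part of these differences in the results was not tested.

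At 25 mM glucose most of the replication genes were lower in DM. By limma, at an adjusted p under 0.05, 23 of the 37 were lower and 1, E2f2, was higher, where 16.6% of all genes tested were lower and 12.5% higher. The median of the 37 log2 changes was -0.77, against -0.10 over all genes, and 35 of the 37 were negative. Changes are DM minus GM in log2(intensity + 20), and the levels given below are the deposited linear intensities, which cannot be compared between genes. With arrays centred on their medians instead, the median of all genes moved by 0.17 and that of the members to -0.58. In 26 of the 37 all 3 DM cultures lay below all 3 GM cultures, as they did in 25.2% of all genes. In RNA of whole cultures, fewer cycling cells and less RNA per cycling cell cannot be told apart.

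**Figure D1:**
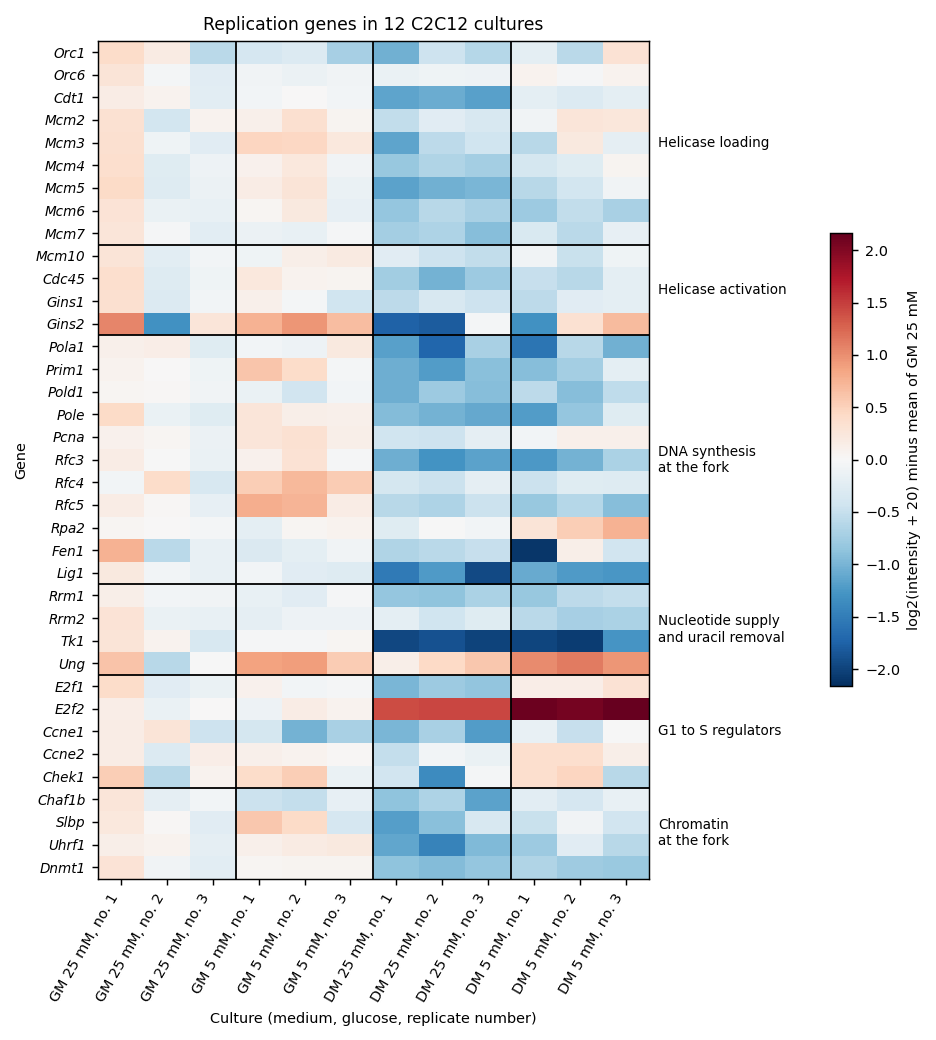
Log2 difference of each of the 37 tested replication genes (rows, by role) from its mean in GM at 25 mM, in each of the 12 cultures (columns, by group), in log2(intensity + 20), with red above and blue below. The columns of DM at 25 mM are the most evenly low, E2f2 is high in all 6 DM cultures, and several genes of helicase loading and G1 to S control are paler in DM at 5 mM than in DM at 25 mM.

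Among the genes that load the helicase, 6 of 9 were lower in DM at 25 mM (16.6% of all genes), and the median change was -0.71. Mcm5, a subunit of the MCM ring, read 610, 366 and 410 in GM at 25 mM, 505, 548 and 405 in GM at 5 mM, 190, 209 and 217 in DM at 25 mM, and 291, 337 and 429 in DM at 5 mM. Its DM cultures at 25 mM were all below every other culture, and it was lower by 2.09-fold (log2 -1.07, SE 0.19, adjusted p = 0.000446). Mcm6, another subunit, read 941, 691 and 680 in GM at 25 mM, 781, 883 and 670 in GM at 5 mM, 419, 499 and 460 in DM at 25 mM, and 436, 520 and 462 in DM at 5 mM. All 6 DM cultures of Mcm6 lay below all 6 GM cultures, with a change of -0.71 (SE 0.15, adjusted p = 0.00172) at 25 mM. Mcm3, Mcm4 and Mcm7 changed by -0.71, -0.73 and -0.77, and the call of Mcm3 was lost without replicate 1 of GM at 25 mM (-0.54, adjusted p = 0.107) or replicate 1 of DM at 25 mM (-0.50, adjusted p = 0.110). The same call was lost with median centring (-0.51, adjusted p = 0.107). It was lost too with another probe set of Mcm3, read when _x_at and _s_at ones were left out (-0.38, adjusted p = 0.148).

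Cdt1, which delivers the MCM ring to origins (chromosome 8, 122568015 to 122573130), read 431, 406 and 328 in GM at 25 mM and 163, 173 and 160 in DM at 25 mM. In GM at 5 mM it read 369, 386 and 371, and in DM at 5 mM 331, 312 and 329. The DM cultures at 25 mM stood far below the other 9, which spanned 312 to 431, and the fall at 25 mM was 2.19-fold (log2 -1.13, SE 0.12, adjusted p = 4.38e-06). Orc1, Orc6 and Mcm2 passed in neither comparison between media, and the groups of each overlapped at 25 mM.

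Orc1, the largest subunit of the origin recognition complex, was dim, at 73.9, 60.2 and 27.7 in GM at 25 mM and 35, 37.7 and 23.2 at 5 mM. The DM cultures read 14.7, 32.3 and 26.3 at 25 mM and 41.1, 27.7 and 68.2 at 5 mM. Its change was -0.70 at 25 mM (SE 0.30, adjusted p = 0.0806) and 0.30 at 5 mM (SE 0.30, adjusted p = 0.511), and the former passed without replicate 3 of GM at 25 mM (-0.99, adjusted p = 0.0214). Orc6, another subunit of that complex, read 438, 346 and 296 in GM at 25 mM and 335, 322 and 337 at 5 mM. In DM it read 319, 331 and 328 at 25 mM and 375, 349 and 375 at 5 mM. Apart from 1 GM culture at 438 its cultures lay close together, with changes of -0.12 (SE 0.13, adjusted p = 0.515) and 0.14 (SE 0.13, adjusted p = 0.495). Mcm2, a subunit of the ring, read 401, 236 and 335 in GM at 25 mM and 343, 406 and 332 at 5 mM. The DM cultures read 212, 263 and 244 at 25 mM and 298, 382 and 378 at 5 mM. With 1 GM culture at 25 mM down in the DM range, its change was -0.38 (SE 0.17, adjusted p = 0.103) at 25 mM and -0.03 (SE 0.17, adjusted p = 0.916) at 5 mM. Without that culture, replicate 2, the change at 25 mM passed (-0.58, adjusted p = 0.015). A second probe set of Mcm2 on MA (an _s_at one) differed more between media. Its means were 240 ± 21.7 in GM and 129 ± 19.5 in DM at 25 mM. At 5 mM they were 535 ± 255 in GM and 229 ± 85.0 in DM (SD). Cdc6, which helps load the ring, was dim throughout, with group means of 19.8 to 50.9, and the ranges of its groups overlapped.

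Helicase activation had 1 of 4 genes lower in DM at 25 mM, too few genes to set against the 16.6% of all genes. Cdc45, which joins the ring to form the moving helicase, read 150, 89.0 and 104 in GM at 25 mM, 134, 120 and 117 in GM at 5 mM, 58.7, 44.9 and 56.5 in DM at 25 mM, and 73.7, 66.7 and 93.8 in DM at 5 mM. Its change at 25 mM was -0.85 (SE 0.19, adjusted p = 0.00337), and the change of -0.56 at 5 mM (SE 0.19, adjusted p = 0.0437) remained past the threshold in 13 of 24 alternative settings. The latter call was lost without replicate 3 of GM at 25 mM, any replicate of GM at 5 mM, replicate 1 of DM at 25 mM or replicates 1 or 2 of DM at 5 mM, with values of -0.59 to -0.47 and adjusted p from 0.0523 to 0.141. Gins2, a GINS subunit read on MB, was 887, 156 and 500 in GM at 25 mM, 717, 827 and 670 in GM at 5 mM, 110, 106 and 403 in DM at 25 mM, and 156, 528 and 678 in DM at 5 mM. Its cultures scattered widely in 3 of the groups, and a change of -1.20 (SE 0.55, adjusted p = 0.257) did not pass. Mcm10, which helps start the helicase, read 145, 95.3 and 111 in GM at 25 mM and 107, 129 and 135 at 5 mM. In DM it read 94.3, 79.2 and 73.8 at 25 mM and 109, 77.4 and 107 at 5 mM. Its DM cultures lay just below the GM cultures at 25 mM and overlapped them at 5 mM, and the changes of -0.41 (SE 0.18, adjusted p = 0.0996) and -0.29 (SE 0.18, adjusted p = 0.277) did not pass. Gins1, another GINS subunit, read 126, 73.7 and 90.5 in GM at 25 mM and 103, 90.9 and 64.7 at 5 mM. The DM cultures read 57.3, 70.4 and 64.6 at 25 mM and 57.2, 77.3 and 78.6 at 5 mM. It too overlapped at 5 mM alone, with changes of -0.45 (SE 0.21, adjusted p = 0.111) and -0.21 (SE 0.21, adjusted p = 0.509) that did not pass.

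The enzymes that copy DNA were the role with the most genes called, with 8 of 11 lower in DM at each glucose level. Of all genes, 16.6% were lower at 25 mM and 14.0% at 5 mM. The medians of these 11 were -0.92 at 25 mM and -0.94 at 5 mM. Lig1, the ligase that joins Okazaki fragments, read 491, 402 and 376 in GM at 25 mM, 403, 350 and 343 in GM at 5 mM, 132, 168 and 94.1 in DM at 25 mM, and 187, 169 and 165 in DM at 5 mM. Every DM culture was below every GM culture, and the change was -1.57 at 25 mM (SE 0.17, adjusted p = 5.32e-06) and -0.99 at 5 mM (SE 0.17, adjusted p = 0.000427). Rfc3, a subunit of the clamp loader, read 227, 201 and 181 in GM at 25 mM, 217, 257 and 200 in GM at 5 mM, 87.0, 71.0 and 80.2 in DM at 25 mM, and 73.8, 89.1 and 119 in DM at 5 mM. It too had no overlap between media, with changes of -1.17 and -1.12.

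The polymerase genes were lower in DM at both glucose levels. Pola1 and Prim1, which make the primers of each new strand, changed by -1.19 and -1.05 at 25 mM and by -1.08 and -0.94 at 5 mM. Pole and Pold1, the catalytic subunits of the leading and lagging strand polymerases, changed by -1.02 and -0.92 at 25 mM and by -0.94 and -0.47 at 5 mM, and all 4 passed in both comparisons. The call of Pold1 at 5 mM was lost without replicate 1 (-0.44, adjusted p = 0.101) or 3 (-0.40, adjusted p = 0.105) of GM at 5 mM and without replicate 2 of DM at 5 mM (-0.35, adjusted p = 0.119). With MB preferred, another probe set of Pola1 was read, and neither of its calls remained. Rfc5, another clamp loader subunit, was lower by 0.58 at 25 mM and by 1.34 at 5 mM on the log2 scale. The former call was lost with median centring (-0.38, adjusted p = 0.139) and without replicates 1 or 2 of either group at 25 mM, with values of -0.57 to -0.50 and adjusted p from 0.0588 to 0.0864. Rfc4, of the same complex, passed at 5 mM (-0.93, adjusted p = 0.00371) and not at 25 mM (-0.35, adjusted p = 0.222). Pcna, the sliding clamp, read 1649 to 1929 in GM and 1317 to 1584 in DM at 25 mM, a change of -0.36 (adjusted p = 0.0475) whose call remained in 11 of 25 alternative settings. The call was lost without replicates 1 or 2 of GM at 25 mM, of GM at 5 mM or of DM at 25 mM, or replicates 1 or 3 of DM at 5 mM, with values of -0.36 to -0.31 and adjusted p from 0.0531 to 0.144. Fen1, the nuclease that trims Okazaki fragments, read 914, 348 and 472 in GM at 25 mM and 426, 456 and 506 at 5 mM. In DM it read 333, 347 and 373 at 25 mM and 108, 583 and 394 at 5 mM. With 1 GM culture high and 1 DM culture low, the changes of -0.58 (SE 0.43, adjusted p = 0.317) and -0.60 (SE 0.43, adjusted p = 0.341) did not pass. This brightest probe set of Fen1 is of a type (_x_at) whose probes can match related transcripts, and its second one, with group means of 166 and 98.4, was lower in DM at 25 mM (-0.65, SE 0.19, adjusted p = 0.016) and did not pass at 5 mM (-0.35, SE 0.19, adjusted p = 0.207).

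Tk1, the thymidine kinase of S phase (chromosome 11, 117815519 to 117826087), had the largest fall of the 37 in both comparisons between media. It read 981, 854 and 631 in GM at 25 mM, 795, 790 and 836 in GM at 5 mM, 191, 206 and 188 in DM at 25 mM, and 189, 179 and 325 in DM at 5 mM. No DM culture reached the GM range, and it was lower by 3.86-fold at 25 mM (log2 -1.95, SE 0.19, adjusted p = 2.26e-06) and by 3.40-fold at 5 mM (log2 -1.77, SE 0.19, adjusted p = 6.84e-06). Rrm1, the large subunit of ribonucleotide reductase, read 692, 605 and 596 in GM at 25 mM, 563, 527 and 621 in GM at 5 mM, 346, 335 and 386 in DM at 25 mM, and 347, 421 and 433 in DM at 5 mM. It was lower by 0.79 (SE 0.12) at 25 mM and by 0.49 (SE 0.12) at 5 mM on the log2 scale, with adjusted p = 0.000166 and 0.00707. At 25 mM a second probe set of Rrm1 on MA had closer means, 402 ± 45.3 in GM and 336 ± 61.3 in DM (SD). At 5 mM it had 516 ± 134 in GM and 346 ± 78.9 in DM (SD). Rrm2, the small subunit, read 2085, 1521 and 1511 in GM at 25 mM, 1464, 1570 and 1565 in GM at 5 mM, 1449, 1253 and 1410 in DM at 25 mM, and 1125, 1019 and 1048 in DM at 5 mM. It passed at 5 mM (-0.52, adjusted p = 0.011) and not at 25 mM (-0.30, adjusted p = 0.111), and its probe sets disagreed, as given further on. Ung, which removes uracil from DNA, was dim, at 39.1, 5.36 and 18.4 in GM at 25 mM and 50.6, 52.6 and 36.3 at 5 mM. The DM cultures read 22.3, 32.2 and 38.0 at 25 mM and 58.3, 63.9 and 54.6 at 5 mM. Its DM cultures overlapped those of GM at 25 mM and lay above them at 5 mM, and the changes of 0.38 (SE 0.28, adjusted p = 0.299) and 0.25 (SE 0.28, adjusted p = 0.556) did not pass.

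**Figure D2:**
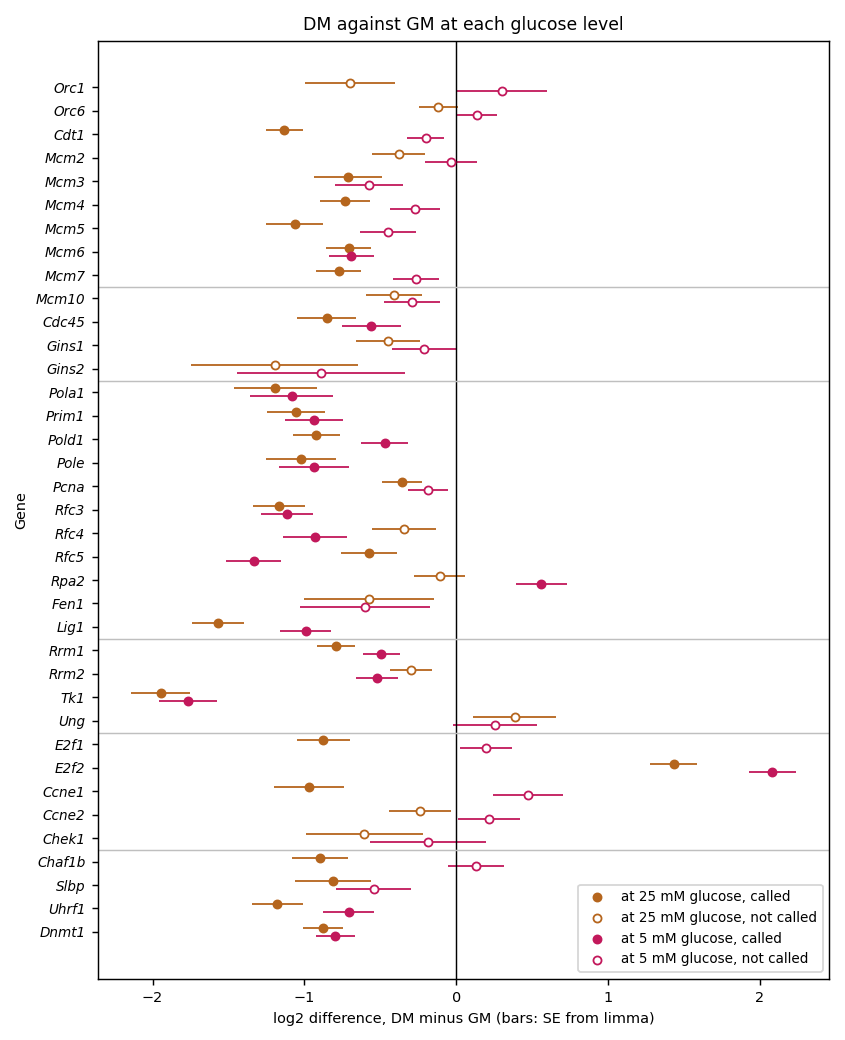
Log2 change of each tested replication gene between DM and GM at 25 mM and at 5 mM glucose, with bars of 1 SE from the limma fit and filled points where the adjusted p passed, by role. Tk1 (-1.95 and -1.77) lies farthest below 0, E2f2 (1.43 and 2.08) lies farthest above it, and Cdt1, E2f1 and Ccne1 are well below 0 at 25 mM and near or above it at 5 mM.

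The G1 to S regulators did not move as 1 body. E2f1, an activating E2F factor (chromosome 2, 154559400 to 154569892), read 190, 116 and 125 in GM at 25 mM, 152, 134 and 138 in GM at 5 mM, 61.3, 73.0 and 68.9 in DM at 25 mM, and 157, 158 and 179 in DM at 5 mM. It was lower in DM at 25 mM (-0.88, SE 0.17, adjusted p = 0.00121), whereas at 5 mM the 3 DM cultures were all above the 3 GM cultures, by 0.20 (adjusted p = 0.459), which did not pass. Ccne1, cyclin E1, read 210, 229 and 130 in GM at 25 mM, 137, 80.8 and 106 in GM at 5 mM, 82.7, 106 and 68.5 in DM at 25 mM, and 162, 125 and 183 in DM at 5 mM. It was lower in DM at 25 mM (-0.97, SE 0.23, adjusted p = 0.00425; on MB -0.73, adjusted p = 0.162) and had a change of 0.47 (adjusted p = 0.145) at 5 mM.

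E2f2, a second activating E2F factor (chromosome 4, 136172274 to 136196057), went against the rest. On MB it read 704, 575 and 638 in GM at 25 mM, 586, 711 and 669 in GM at 5 mM, 1716, 1765 and 1771 in DM at 25 mM, and 2840, 2738 and 2917 in DM at 5 mM. The 3 ranges of GM, of DM at 25 mM and of DM at 5 mM did not touch. It was higher in DM by 2.70-fold at 25 mM (log2 1.43, SE 0.16, adjusted p = 4.28e-06) and by 4.23-fold at 5 mM (log2 2.08, SE 0.16, adjusted p = 3.17e-08). Its second probe set gave 1.54 and 1.74, both also past the threshold.

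Ccne2, cyclin E2, was dim, at 53.0, 33.6 and 52.1 in GM at 25 mM and 50.4, 49.3 and 46.4 at 5 mM. In DM it read 26.1, 42.9 and 39.5 at 25 mM and 64, 64.5 and 51.3 at 5 mM. Its groups overlapped at 25 mM and not at 5 mM, and the changes of -0.24 (SE 0.20, adjusted p = 0.394) and 0.21 (SE 0.20, adjusted p = 0.496) did not pass. Chek1, the checkpoint kinase that guards stalled forks, read 78.4, 24.5 and 51.1 in GM at 25 mM and 69.8, 78.6 and 41.1 at 5 mM. The DM cultures read 30.6, 6.53 and 45.9 at 25 mM and 67.5, 73.8 and 24.7 at 5 mM. Its cultures scattered in every group, and the changes of -0.61 (SE 0.38, adjusted p = 0.241) and -0.19 (SE 0.38, adjusted p = 0.778) did not pass.

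All 4 tested genes of chromatin at the fork were lower in DM at 25 mM, and 2 of them at 5 mM. As with helicase activation, 4 genes are too few to set against the shares of all genes, 16.6% and 14.0%. Uhrf1, which brings the maintenance methyltransferase to new DNA, read 284, 274 and 224 in GM at 25 mM, 281, 296 and 301 in GM at 5 mM, 108, 82.4 and 123 in DM at 25 mM, and 143, 216 and 163 in DM at 5 mM. Its media did not overlap, with changes of -1.18 at 25 mM (SE 0.17, adjusted p = 7.46e-05) and -0.71 at 5 mM (SE 0.17, adjusted p = 0.00515). Dnmt1, that methyltransferase, read 762, 581 and 522 in GM at 25 mM, 633, 639 and 644 in GM at 5 mM, 328, 312 and 337 in DM at 25 mM, and 385, 353 and 342 in DM at 5 mM. The changes of -0.88 and -0.80 both passed, again with no overlap, and both calls were lost with the probe set on MB (-0.46, adjusted p = 0.610, and -0.83, adjusted p = 0.313). Chaf1b, a CAF-1 subunit, and Slbp, which binds the end of histone messages, were lower at 25 mM on MA, by 0.90 and 0.81 on the log2 scale. Their tested probe sets on MB gave -0.09 for Chaf1b (adjusted p = 0.930) and 0.02 for Slbp (adjusted p = 0.990). The call of Slbp on MA was also lost with median centring (-0.61, adjusted p = 0.0794) and without replicates 1 or 2 of either group at 25 mM, with values of -0.80 to -0.62 and adjusted p from 0.0528 to 0.0895.

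At 5 mM glucose 15 of the 37 genes were lower in DM and 2, E2f2 and Rpa2, were higher, where 14.0% of all genes tested were lower and 9.85% higher. The median change was -0.47, against -0.04 over all genes. All 3 DM cultures lay below the GM cultures in 19 of the 37 (21.8% of all genes) and above them in 6 (16.0% of all genes), which were Orc6, Rpa2, Ung, E2f1, E2f2 and Ccne2. Rpa2, a subunit of the protein that coats single-stranded DNA, read 96.7, 94.3 and 90.1 in GM at 25 mM, 77.9, 96.4 and 99.8 in GM at 5 mM, 75.3, 92.8 and 89.2 in DM at 25 mM, and 118, 144 and 172 in DM at 5 mM. Only in DM at 5 mM were its cultures above 100, and the change there was 0.56 (SE 0.17, adjusted p = 0.0211). That call was lost without replicate 1 of GM at 5 mM (0.47, adjusted p = 0.1), without replicate 3 of DM at 5 mM (0.44, adjusted p = 0.0982), and among high-18S cultures alone (0.45, adjusted p = 0.308).

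The comparisons between media share no array, but the fit to all 12 cultures gave both the same estimate of the spread. Across them, 13 of the 37 genes were lower at both glucose levels. A further 10 were lower at 25 mM and not at 5 mM, and 2 (Rfc4 and Rrm2) at 5 mM and not at 25 mM. Of all genes tested, 16.6% were lower at 25 mM and 14.0% at 5 mM. The shares of all genes lower at both levels, or at 1 level only, were not counted, so these counts have no background. The 13 were Mcm6, Cdc45, Pola1, Prim1, Pold1, Pole, Rfc3, Rfc5, Lig1, Rrm1, Tk1, Uhrf1 and Dnmt1. The 10 were Cdt1, Mcm3, Mcm4, Mcm5, Mcm7, Pcna, E2f1, Ccne1, Chaf1b and Slbp. Passing in one comparison and not in the other does not show a difference between them, and the interaction, given below, passed for Cdt1 of these. A further 10 passed in neither. At 5 mM, 2 of the 3 GM cultures were low-18S, and within the high-18S cultures (1 GM culture and 2 DM cultures) 8 of the 37 were lower and 1 higher. The calls lost there were those of Mcm6, Cdc45, Prim1, Pold1, Pole, Rfc4, Rrm2 and Rpa2. In that smaller fit 7.62% of all genes were lower and 6.86% higher.

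In GM the glucose level made no difference that passed. By limma 0 of the 37 genes were called in 5 mM against 25 mM, as was 0.00824% of all genes tested (1 gene), and 4 of the 37 had an unadjusted p under 0.05 (Rfc4, Rfc5, Ung and Ccne1), a share of 10.8% where that of all genes was 9.57%. The median change was 0.06, against -0.01 over all genes, and median centring moved the former to 0.19 and the latter by 0.13. Within the high-18S cultures the members' median was -0.02. Ccne1 had the smallest unadjusted p of the 37, with a change of -0.70 (SE 0.23, adjusted p = 0.407). The 3 cultures at 5 mM were all above those at 25 mM for Pcna and Rfc4 (5.41% of the 37 and 7.44% of all genes), and below them for 0 (9.07% of all genes).

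In DM the same step in glucose went with higher levels of 2 genes, Cdt1 and E2f1. By limma these 2 of the 37 were higher at 5 mM and 0 were lower, where 0.470% of all genes tested were higher and 0.939% lower. Cdt1 rose by 1.86-fold (log2 0.89, SE 0.12, adjusted p = 0.00111), from a mean of 165 ± 6.65 (SD, n = 3) to 324 ± 10.7 (SD, n = 3). E2f1 rose by 2.11-fold (log2 1.07, SE 0.17, adjusted p = 0.00447), from 67.7 ± 5.94 to 165 ± 12.6 (SD, n = 3). In GM, for comparison, Cdt1 had means of 388 ± 54.0 at 25 mM and 375 ± 9.30 at 5 mM and E2f1 of 144 ± 40.6 and 141 ± 9.74 (SD, n = 3). Both calls remained in every alternative setting that tested the gene, 25 for Cdt1 and 24 for E2f1. None of these settings read another tested probe set of either gene, so they cannot show whether the calls hold on one. The second probe set of E2f1 did not pass, as given further on.

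**Figure D3:**
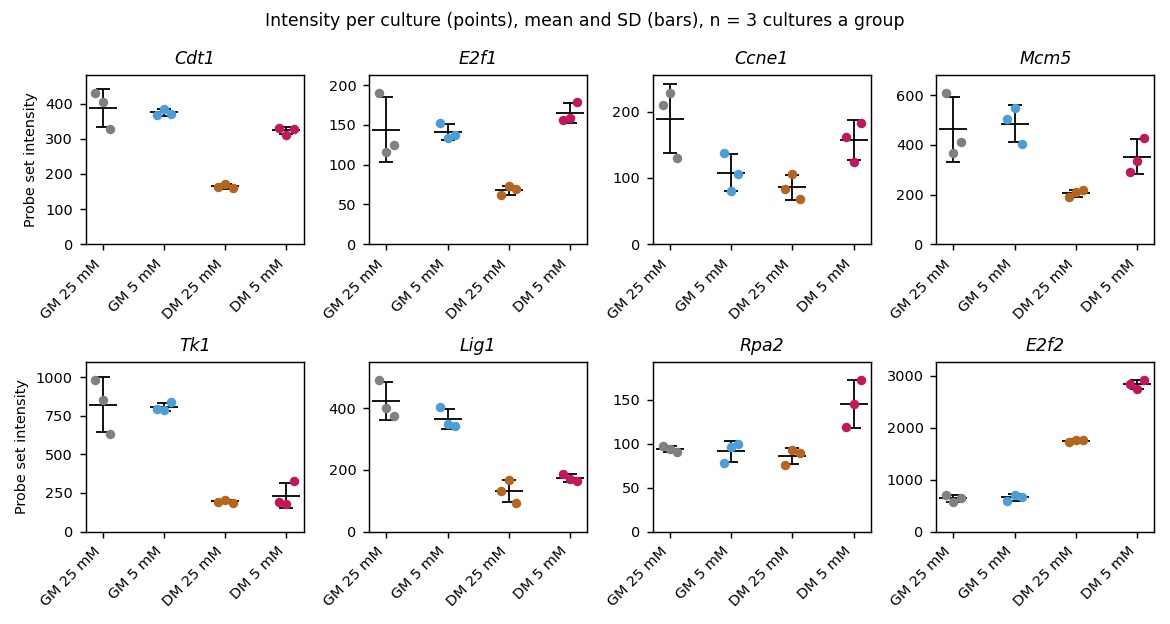
Intensity of 8 replication genes in each culture, by group, with 1 point per culture and bars of the mean and SD (n = 3), on linear axes from 0. Cdt1 and E2f1 are low in DM at 25 mM alone, Tk1 and Lig1 are low in both DM groups, and E2f2 is highest in DM at 5 mM, at 2738 to 2917.

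The other members mostly differed in the same direction without passing. Of the 37 changes with glucose in DM, 34 were positive with a median of 0.41, against 51.6% of all genes and a median of 0.01, and 18 had an unadjusted p under 0.05, as had 9.68% of all genes. All 3 cultures at 5 mM were above the 3 at 25 mM in 17 of the 37 (7.0% of all genes), and below them in 1, Rrm2 (7.19% of all genes). The 17 were Orc6, Cdt1, Mcm2, Mcm4, Mcm5, Mcm7, Cdc45, Pcna, Rpa2, Ung, E2f1, E2f2, Ccne1, Ccne2, Chaf1b, Uhrf1 and Dnmt1. E2f2 had a change of 0.69 (SE 0.16, adjusted p = 0.149), and Mcm5 of 0.71 (SE 0.19, adjusted p = 0.0876). Each DM group held 1 low-18S culture. With the 18S class as a block 8 members were higher, among 179 of all 12137 genes. The 8 were Cdt1, Mcm5, Pcna, Rpa2, E2f1, E2f2, Chaf1b and Uhrf1. Within the high-18S cultures 2 members were higher, among 43 of all 12137 genes.

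By role, the medians of the glucose change in DM were 0.69 for the G1 to S regulators, 0.56 for chromatin at the fork, 0.52 for helicase loading, 0.30 for helicase activation, 0.25 for DNA synthesis and 0.17 for nucleotide supply. All 9 genes of helicase loading had a positive change, from 0.04 for Mcm6 to 0.89 for Cdt1. Tk1, which had fallen furthest between media, had a glucose change in DM of 0.18 (adjusted p = 0.873), and 1 culture in DM at 5 mM, at 325, stood apart from the other 2, at 189 and 179. The negative changes were those of Rfc5 (-0.20), Fen1 (-0.22) and Rrm2 (-0.36), and none of them passed.

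The interaction, the difference between the glucose changes of DM and GM (DM minus GM), passed for 1 of the 37 genes, where 0.132% of all genes tested had a higher and 0.346% a lower interaction. That gene was Cdt1, at 0.93 (SE 0.17, adjusted p = 0.0257). The call remained in 13 of 25 alternative settings, with adjusted p from 0.0166 to 0.266, and was lost without 8 of the 12 cultures taken one at a time and in 4 other settings, among them median centring (0.77) and the high-18S cultures alone (0.95). Those cultures were replicates 1 and 2 of GM at 25 mM, 1 and 2 of GM at 5 mM, 1 and 2 of DM at 25 mM, and 1 and 3 of DM at 5 mM, and the value stayed between 0.85 and 0.96 without them. Ccne1 had the largest interaction, 1.44 (SE 0.32, adjusted p = 0.0748), and passed without replicate 3 of GM at 25 mM (1.67, adjusted p = 0.0416) or without replicate 2 of DM at 5 mM (1.58, adjusted p = 0.0442). E2f1 had 1.07 (SE 0.25, adjusted p = 0.084) and Chaf1b 1.03 (SE 0.26, adjusted p = 0.125). Over the 37 genes the median was 0.29 and 32 were positive, against 0.02 and 51.8% over all genes. Median centring moved the median of all genes by -0.16 and that of the members to 0.13.

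Genes of G2 and mitosis showed the other direction with glucose in DM. Of 28 tested, 27 were lower in DM at 25 mM (16.6% of all genes) and 28 at 5 mM (14.0% of all genes), with medians of -1.47 and -2.11. In DM, 12 of the 28 were lower at 5 mM than at 25 mM (0.939% of all genes) and 0 were higher (0.470% of all genes). The median of that glucose change was -0.63. The interaction passed for 6 (Bub1, Bub1b, Ccnb2, Cenpa, Mki67 and Ube2c), all negative, where 0.346% of all genes had a lower one. Within the high-18S cultures 7 of the 28 were lower with glucose in DM, where 0.585% of all genes were, and the interaction passed for 1, where 0.0742% of all genes had a lower one. Per culture, the median over the replication genes of the difference from GM at 25 mM was -0.83, -0.67 and -0.68 in DM at 25 mM and -0.49, -0.37 and -0.21 in DM at 5 mM. The same medians over the genes of G2 and mitosis were -1.51, -1.45 and -1.43 in DM at 25 mM and -1.97, -2.02 and -1.93 in DM at 5 mM. The 3 DM cultures at 5 mM thus lay above those at 25 mM for replication and below them for mitosis, with no overlap in either list, and the difference between the lists was not tested.

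**Figure D4:**
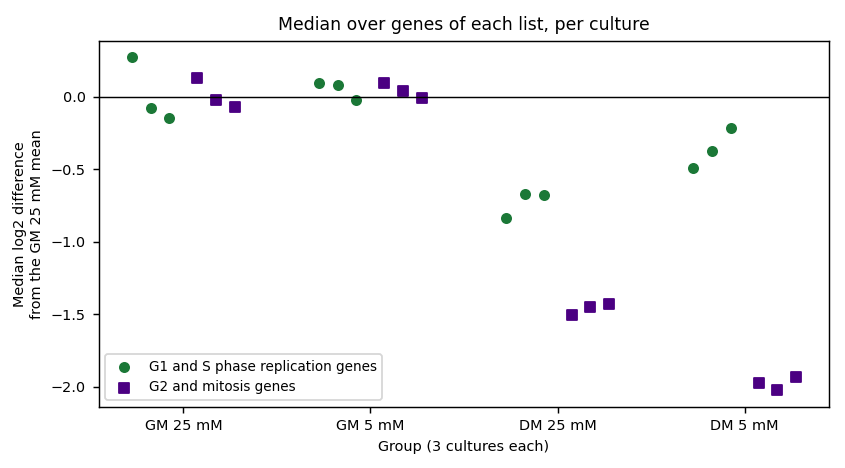
Median log2 difference from the mean of GM at 25 mM, over the 37 tested replication genes and over the 28 tested genes of G2 and mitosis, with 1 point per culture. Both lists are near 0 in GM and lower in DM, where the replication genes are at -0.83 to -0.67 at 25 mM and -0.49 to -0.21 at 5 mM, and the genes of mitosis at -1.51 to -1.43 and -2.02 to -1.93.

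Further replication and repair genes of S phase, outside the 40, gave counts of the same order. Of 45 tested, 24 were lower and 4 higher in DM at 25 mM, with a median of -0.67, where 16.6% of all genes were lower and 12.5% higher. At 5 mM 16 were lower and 2 higher, with a median of -0.43, where 14.0% of all genes were lower and 9.85% higher. The 4 higher at 25 mM were a smaller share than among all genes. They were Cdk2, the kinase partner of cyclin E (1.16), the repressive factor E2f8 (0.87), and Orc2 and Orc4 of the origin recognition complex (0.48 and 0.72). Their change with glucose in DM was positive in 36 of the 45 with a median of 0.23, and 0 passed by limma, where 13 had an unadjusted p under 0.05 (9.68% of all genes). An E2F word lay in 17 of the 38 with a promoter window (44.7%).

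Among relatives of the members that serve outside S phase, the shares called were near those of all genes at 25 mM and above them at 5 mM. Of 18 tested, 3 were higher in DM at 25 mM and 3 lower, with a median of 0.22, where 12.5% of all genes were higher and 16.6% lower. At 5 mM 3 were higher and 5 lower, where 9.85% of all genes were higher and 14.0% lower. By limma 55.6% of the 18 had an unadjusted p under 0.05 at 25 mM and 61.1% at 5 mM, against 39.7% and 33.8% of all genes. Rb1, the retinoblastoma protein that restrains E2F factors, was higher in DM by 2.33 at 25 mM and 2.42 at 5 mM on the log2 scale, and Samhd1, which breaks down nucleotides, was lower by 0.95 at 25 mM. An E2F word was in 2 of the 18 with a window (11.1%).

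**Figure D5:**
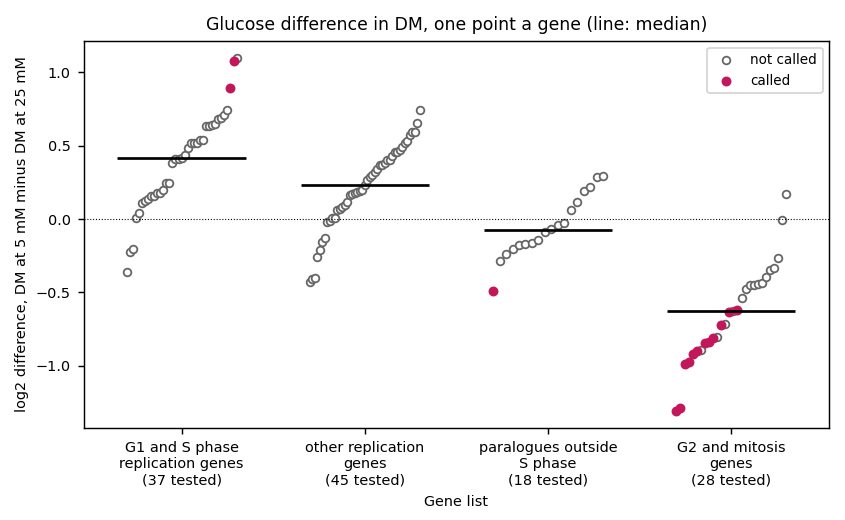
Log2 difference between DM at 5 mM and DM at 25 mM glucose for the genes of 4 lists, with 1 point per tested gene, filled where the adjusted p passed, and a line at each list's median. The medians are 0.41 for the 37 replication genes, 0.23 for the 45 other replication genes, -0.08 for the 18 relatives outside S phase and -0.63 for the 28 genes of G2 and mitosis, and the filled points are 2 above 0 in the first list, 1 below 0 among the relatives and 12 below 0 in the last list.

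Most members were measured more than once, and the probe sets mostly gave the same sign. Of 88 probe sets naming 1 member, 72 were tested, and 27 members had several. For these, all probe sets had the same sign in 25 of 27 members at 25 mM and 25 of 27 at 5 mM between media, in 21 with glucose in DM and in 13 with glucose in GM, and 0 were called in both directions. The second probe set of Cdt1 gave -0.77 between media at 25 mM and 0.68 with glucose in DM, both past the threshold (adjusted p = 0.00152 and 0.0438), but an interaction of 0.48 that did not pass (adjusted p = 0.407). E2f1 was less certain, as its second probe set gave -0.14 between media at 25 mM and 0.56 with glucose in DM (adjusted p = 0.666 and 0.346). Rrm2 had 3 probe sets on MA, with changes of -0.30, 0.50 and 0.08 between media at 25 mM, and the brightest is of a type (_x_at) whose probes can match related transcripts. Tyms, thymidylate synthase, was dim on MA with group means of 8.06 to 26.9, and its tested probe set on MB gave -0.34 at 25 mM and -1.01 at 5 mM (adjusted p = 0.331), neither past the threshold.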

How the data were processed

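The deposited tables hold linear intensities, 1 value per probe set and array, and the software by which the authors made these intensities is not given in the sources used here. Arrays were kept as deposited and taken as already scaled, because the trimmed means of the MA arrays averaged near 150. No such value is given for MB. Values were analysed as log2(intensity + 20), and fold changes are on that scale, which understates changes of dim genes. Control probe sets were left out. Probe sets above the 40th percentile of mean log2 level of their design were tested, 13575 on MA and 13506 on MB. Genes were named through the platform annotation, and a gene took its brightest probe set naming it alone, MA preferred.

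Each design was fitted with limma 3.58.1 (R 4.3.3): 4 group means, eBayes with a trend, 5 contrasts, two-sided, Benjamini-Hochberg adjustment within a design, threshold 0.05. The number of arrays limits the precision. The fit was tested on simulated data. Promoter windows are RefSeq's. The members, lists and roles were chosen with earlier results of these data known. Full values are given for the 2 members of each role with the largest mean difference between media, for members called with glucose, and for members that passed nothing or went against the rest. Alternatives were other pseudocounts, filters, normalizations, models, probe set choices, the replicate number and the 18S class as blocks, and leaving out each culture.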

Additional observations from a re-analysis of the deposited data

Results flagged for a closer look

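The glucose change of Cdt1 differed between the media, with an interaction of 0.93 on the log2 scale by limma (SE 0.17, adjusted p = 0.0257), since its change was -0.04 in GM and 0.89 in DM. In DM every culture at 5 mM was above every culture at 25 mM, and in GM the groups overlapped. The call of the interaction remained in 13 of 25 alternative settings, and the interaction of the second probe set of Cdt1 did not pass. The cause was not tested.

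Among the genes of G2 and mitosis, the interaction passed for 6 of 28, all negative, while the 1 replication gene that passed had a positive interaction. Of all genes tested, 0.346% had a lower and 0.132% a higher interaction. The difference between the lists was not tested.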

How the results depend on the processing

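Of 4565 values of single members under alternative settings, 4317 kept their sign and their side of the threshold, 72 lost a call, 23 gained one, 151 that were not called under either setting changed sign (65 of them with glucose in GM and 49 in the interaction), and 2 called ones reversed. Those 2 came with MB preferred, for Pola1 in DM against GM at 5 mM (0.62) and Slbp in DM against GM at 25 mM (0.017), and rest on another probe set. Members called with each culture left out in turn numbered 20 to 25 in DM against GM at 25 mM, 14 to 18 at 5 mM, 0 to 0 with glucose in GM, 2 to 3 with glucose in DM and 0 to 2 in the interaction. Of 24 called in the comparison at 25 mM, 15 were with MB preferred, where 33 members were tested. Of 17 called at 5 mM, 9 were within the high-18S cultures, which are fewer. With glucose in DM, 2 became 8 with the 18S class as a block and 1 with MB preferred, where E2f1 was not tested. Genes of G2 and mitosis passing the interaction fell from 6 to 1 within the high-18S cultures. The interaction's 1 member became 0 with median centring, eBayes without trend, the replicate block and within the high-18S cultures; the cause was not tested. The replicate numbers share no stated origin, and same-numbered cultures correlated at -0.56 to 0.52 over 18 pairs, with 3 over 0.1, so they do not pair the cultures. With the replicate block 23, 16, 0, 2 and 0 members were called in the 5 comparisons. Signal over background limits Cdc6 and Tyms on MA.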
